A study of Homo sapiens with 12 samples.

Results

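Metformin was tested here in cells that also received the NAMPT inhibitor FK866. KP4 is an established cell line, labelled as pancreatic ductal cell carcinoma with a wild-type genotype. Its cells received 5 nM FK866 (FK) or 10 mM metformin together with 5 nM FK866 (Met+FK) for 24 h, and the remaining libraries came from cells given DMSO, the vehicle, or metformin alone (Met). The labels describe both drugs as given for the same time, so FK is the background to which metformin was added, and not a pre-treatment. The comparison rests on 6 of the 12 libraries, 3 FK and 3 Met+FK, and on the 15376 of 36601 genes whose mean over the 12 libraries was at least 10 normalized counts. The gene just inside this limit, PRDM12, had a mean of 10.0004, and the gene just outside it, HOXA13, had 9.997. All members of the 27 gene lists described below were looked for, and those under the limit are counted as not tested.

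Metformin acts on complex I of the respiratory chain in mitochondria, where NADH is oxidized back to NAD. NAMPT is the rate-limiting enzyme of the salvage pathway that rebuilds NAD from nicotinamide, and FK866 blocks it. Cells that cannot balance NADH, amino acids or protein folding activate kinases that phosphorylate the translation factor eIF2α, after which the transcription factor ATF4 switches on a program known as the integrated stress response, with genes for amino acid synthesis, amino acid uptake and tRNA charging.

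The 6 libraries held from 30667735 to 41052203 read pairs counted on genes. Among these 6, FK replicate 2 stood apart in its dependence on GC content. Its values fell by 0.245 on the log2 scale per 10 percentage points of GC, against slopes from −0.0481 to 0.0631 in the other 5. The libraries without FK866, which enter the interaction, had slopes of 0.196, 0.0429 and 0.180 in DMSO and −0.0849, −0.139 and 0.0801 in Met. Where a gene described below lost its call without FK replicate 2, the value without that library is given. Nothing in the labels says that replicates 1 to 3 were separate cultures, so p-values may measure only technical spread between these libraries. The 10 markers of ductal carcinoma together had from 16238 to 22878 normalized counts per library, and 3 of them were not tested. CFTR was at 0 in all 6 libraries, and EPCAM was too low to be tested. The 8 markers of acinar and islet cells summed to at most 2.2958 normalized counts. The 6 leukocyte markers, of which 2 were tested, summed to 958.75 to 1042.2 (CD3E was at 0 throughout). Of these 6, 3 were under 10 in every FK library and 4 in every Met+FK library, so that few genes carried the sum. The 5 endothelial markers, of which 2 were tested, summed to 69.845 to 82.649 in FK and 39.536 to 44.947 in Met+FK (KDR was at 0).

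Metformin changed the expression of a wide set of genes in FK866-treated cells, in near equal numbers up and down. A gene was called a DEG when the adjusted p-value of limma-trend, fitted to log2(normalized count + 1), was under 0.05 and the fold change exceeded 1.5, which is 0.585 on the log2 scale. By this rule 1425 genes (9.27% of those tested) were higher and 1429 (9.29%) were lower in Met+FK than in FK, 18.6% in either direction. Of these, 530 rose and 467 fell by more than 1 on the log2 scale, and 59 rose and 21 fell by more than 2. Over all genes tested, the log2 fold change had a median of −0.01. The counts of DEGs in each list below are to be read beside the 9.27% higher, 9.29% lower and 18.6% in either direction. Among 12796 protein-coding genes 1100 rose and 1189 fell, and among 2501 long non-coding RNAs 316 rose and 235 fell. The 3 Met+FK libraries did not overlap the 3 FK libraries for 50.9% of all genes tested, so a lack of overlap alone marks no gene. It held for 1406 of the genes that rose and 1398 of those that fell. With each of the 6 libraries left out in turn, 1039 of the genes that rose and 940 of those that fell were called every time. The median GC content was 51.9% among DEGs that rose, 46.3% among DEGs that fell and 48.5% among the genes tested. After each library's dependence on GC content and length of the transcript was taken out by loess, 2851 genes were called, of which 2549 were among the 2854 called without it.

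**Figure D1:**
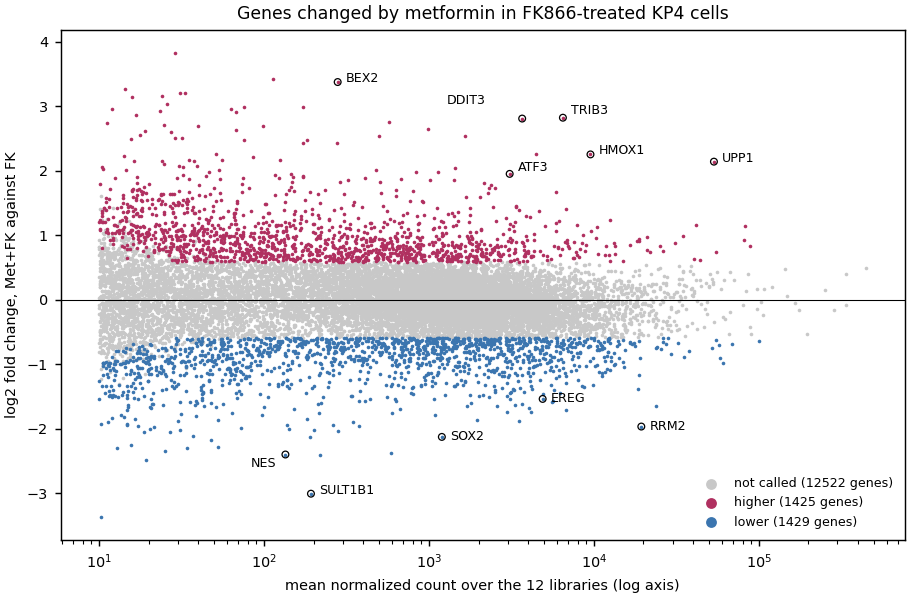
Log2 fold change of Met+FK against FK for each of the 15376 genes tested (vertical axis) by its mean normalized count over the 12 libraries (horizontal axis, log scale). Crimson points are the 1425 genes called higher, blue points the 1429 called lower, grey points the 12522 not called, and 11 genes are labelled, from BEX2 at the top to SULT1B1 at the bottom.

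The genes with the largest changes came from several functions. Described here are the 12 highest and 12 lowest fold changes of DEGs that averaged 100 or more normalized counts and whose FK and Met+FK libraries did not overlap. Their values are given in the order of replicates 1, 2 and 3. KLHDC7B, a kelch domain protein, had 19.8, 15.9 and 25.3 normalized counts in FK and 234, 195 and 242 in Met+FK (log2 fold change 3.41, standard error 0.37, adjusted p = 4.3e-06). BEX2, a small brain-expressed X-linked protein on chromosome X from 103309346 to 103311046 on the minus strand (hg38), had 51, 50.4 and 36.7 in FK and 547, 495 and 413 in Met+FK (log2 fold change 3.37, standard error 0.17, adjusted p = 3.71e-09). HRK, a pro-apoptotic BH3-only protein, had 34, 33.6 and 45.9 in FK and 344, 297 and 279 in Met+FK (log2 fold change 2.99, standard error 0.18, adjusted p = 1.6e-08). That the libraries of these 3 genes did not overlap was a condition of their choice and adds no separate evidence. ADM2, a peptide hormone of the calcitonin family, had 168, 161 and 158 in FK and 1077, 1072 and 1143 in Met+FK (log2 fold change 2.75, standard error 0.10, adjusted p = 1.53e-10). LAMP3, a lysosomal membrane protein, had 273, 299 and 277 in FK and 1705, 1846 and 1781 in Met+FK. Its log2 fold change was 2.65. RAB39B, a small GTPase of vesicle traffic, rose by 2.53, NGFR, the low-affinity nerve growth factor receptor, by 2.53, MYCL, a MYC family transcription factor, by 2.48, LRATD2 by 2.44 and the kinase STK32A by 2.43, all on the log2 scale. TRIB3 and DDIT3, which complete the 12, belong to the integrated stress response and follow below.

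At the lower end stood SULT1B1, a cytosolic sulfotransferase on chromosome 4 from 69721167 to 69787961 on the minus strand, with 339, 446 and 385 normalized counts in FK and 54.4, 47.8 and 41 in Met+FK (log2 fold change −3.0, standard error 0.18, adjusted p = 1.24e-08). CNIH2, which escorts glutamate receptors through the secretory pathway, had 342, 265 and 367 in FK and 53.3, 49.4 and 81 in Met+FK (log2 fold change −2.41, standard error 0.21, adjusted p = 4.91e-07). FAM111B, a protease whose expression is tied to the cell cycle, had 878, 1277 and 840.3 in FK and 168, 154 and 259.5 in Met+FK (log2 fold change −2.37, standard error 0.27, adjusted p = 5.56e-06). In these 3 genes too, the lack of overlap was a condition of the choice. Transcription factors of stem and epithelial cells were among the genes that fell. SOX2, a pluripotency factor, had 1785, 1979.9 and 1869 in FK and 421, 377 and 499 in Met+FK (log2 fold change −2.12, standard error 0.10, adjusted p = 2.5e-09). GRHL3, which drives epidermal differentiation, had 338, 339.7 and 304 in FK and 70, 86.5 and 84.9 in Met+FK (log2 fold change −2.02, standard error 0.14, adjusted p = 3.75e-08). In both genes the replicates were tight, and the lack of overlap was again a condition of the choice. PADI1, a peptidylarginine deiminase, had a log2 fold change of −2.13, CALB1, a calcium-binding protein, of −2.0, RAB7B, a small GTPase, of −1.96, and the long non-coding RNA AL139393.3 of −2.04. NES, the intermediate filament protein nestin, COL1A1, a collagen chain, and RRM2, a subunit of ribonucleotide reductase, are described with their lists.

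Regulators of the integrated stress response were higher in Met+FK than in FK. Of its 18 regulators, all tested, 13 rose and the other 5 did not pass the test, and their median log2 fold change was 1.43, against −0.01 over all genes. TRIB3, a pseudokinase that feeds back on ATF4 and is located on chromosome 20 from 362835 to 397559 on the plus strand, had 2082, 1669 and 1677 normalized counts in FK and 12607, 11856 and 13795 in Met+FK (log2 fold change 2.82, standard error 0.12, adjusted p = 7.8e-10). DDIT3, the transcription factor CHOP, on chromosome 12 from 57516588 to 57521737 on the minus strand, had 1174, 1101 and 855 in FK and 8054, 7166 and 6600.0 in Met+FK (log2 fold change 2.81, standard error 0.13, adjusted p = 1.57e-09). SESN2, a leucine sensor of the mTORC1 pathway, had 1905, 1607 and 1501 in FK and 7782, 7579 and 8689.8 in Met+FK (log2 fold change 2.27, standard error 0.12, adjusted p = 6.34e-09). The 3 Met+FK libraries of each of these genes were several times above the 3 FK libraries. NUPR1, a small stress-induced chromatin protein, had 24.5, 15 and 18.4 in FK and 111, 128 and 131 in Met+FK (log2 fold change 2.64, standard error 0.22, adjusted p = 3.25e-07). A transcription factor induced by ATF4, ATF3, had 1611, 1719 and 1479.6 in FK and 5911, 6441 and 6230.3 in Met+FK (log2 fold change 1.95, standard error 0.08, adjusted p = 2.63e-10), and PPP1R15A, the phosphatase subunit GADD34 that reverses eIF2α phosphorylation, had 1256, 1371 and 1301 in FK and 4545, 4185 and 4292 in Met+FK (log2 fold change 1.73, standard error 0.10, adjusted p = 8.68e-09). DDIT4, an inhibitor of mTORC1, had 3353, 3003 and 3145 in FK and 10038, 9346 and 10891 in Met+FK (log2 fold change 1.67, standard error 0.08, adjusted p = 2.47e-09). None of these 7 genes overlapped between the groups, which also held for 50.9% of all genes tested.

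ATF4 itself rose less, from 15637, 13759 and 13611 in FK to 29032, 27251 and 28039 in Met+FK (log2 fold change 0.97, standard error 0.07, adjusted p = 1.08e-07). The transcription factors that pair with ATF4 or act beside it rose as well: JDP2 by 1.65, CEBPG by 1.20 and CEBPB by 1.01 on the log2 scale, as did the stress-induced ubiquitin ligase adaptor KLHL24, by 1.13. CHAC1, which breaks down glutathione, had 561, 483 and 442 in FK and 1815, 1848 and 2201 in Met+FK (log2 fold change 1.98, standard error 0.12, adjusted p = 1.23e-08). All 3 Met+FK libraries of CHAC1 were several times above the FK libraries. The kinases that phosphorylate eIF2α did not pass the test, with log2 fold changes of −0.47 for EIF2AK3 (PERK), −0.02 for EIF2AK4 (GCN2), −0.10 for EIF2AK1 (HRI) and −0.28 for EIF2AK2 (PKR), nor did ATF5 (−0.36). For metformin without FK866 the median of the 18 genes was 1.58, and ATF3 is among the genes called for the difference between the responses, as described at the end. Outside the list, UPP1 and STC2, which the study names, also rose. UPP1, a uridine phosphorylase that frees ribose from uridine, had 23341, 20895 and 21232 in FK and 96755, 93124 and 98498 in Met+FK (log2 fold change 2.14, standard error 0.07, adjusted p = 2.06e-11), and STC2, a secreted glycoprotein induced by stress, had 493, 601 and 589 in FK and 1621, 1719.8 and 1515 in Met+FK (log2 fold change 1.53, standard error 0.10, adjusted p = 3.91e-08).

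Many genes for making amino acids, importing them and loading them onto tRNAs rose. Of 21 enzymes of amino acid synthesis and the folate cycle, 12 rose and 9 did not pass (median 0.90). CBS, which condenses serine with homocysteine, had 311, 290.2 and 339.8 normalized counts in FK and 937, 941 and 984 in Met+FK (log2 fold change 1.60, standard error 0.09, adjusted p = 1.23e-08). ASNS, asparagine synthetase, had 218, 202 and 161 in FK and 527, 489 and 445 in Met+FK (log2 fold change 1.34, standard error 0.16, adjusted p = 8.65e-06). PHGDH, the entry enzyme of serine synthesis, had 6406, 5922 and 6442 in FK and 12249, 12494 and 14594 in Met+FK (log2 fold change 1.06, standard error 0.08, adjusted p = 8.16e-08). For all 3 enzymes the lowest Met+FK library was well above the highest FK library, while 50.9% of all genes tested had no overlap in either direction. PYCR1, of proline synthesis, rose by 1.28, GOT1, the cytosolic aspartate aminotransferase, by 1.24, PSAT1, of serine synthesis, by 0.94, and MTHFD2, a folate enzyme of the mitochondria, by 0.77 on the log2 scale. ASS1, ALDH1L2, CTH, GPT2 and MTHFD1L rose by 1.06, 1.01, 1.0, 0.91 and 0.90. The 9 that did not pass lay between −0.54 (SHMT1) and 0.37 (PSPH), the last enzyme of serine synthesis.

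Of 14 amino acid transporters, 13 were tested, 7 rose, 1 fell and 5 did not pass (median 0.70). SLC43A1, a carrier of large neutral amino acids, had 68.9, 60.2 and 79.2 in FK and 230.0, 234 and 241 in Met+FK (log2 fold change 1.75, standard error 0.15, adjusted p = 4.23e-07). SLC1A4, which exchanges alanine, serine and cysteine, had 2738, 2629 and 2808 in FK and 7177, 6929.6 and 7153 in Met+FK (log2 fold change 1.38, standard error 0.07, adjusted p = 5.5e-09). SLC3A2 and SLC7A5, the chains of the leucine exchanger, rose by 0.88 and 0.75, the glycine carrier SLC6A9 by 1.10 and the arginine carrier SLC7A1 by 0.70. SLC7A11, the cystine importer, rose from 4119.9, 6397 and 3949.9 in FK to 9342, 7938 and 7449.8 in Met+FK (log2 fold change 0.80, standard error 0.18, adjusted p = 0.00253), and here FK replicate 2 came closest to the Met+FK libraries. SLC7A6, an exchanger of cationic and neutral amino acids, fell, with 1407, 1470.3 and 1563 in FK and 995, 965 and 959 in Met+FK (log2 fold change −0.60, standard error 0.08, adjusted p = 1.96e-05). It lost the call without FK replicate 3 (−0.56). SLC7A3 was at 0 in all 6 libraries.

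Of 20 cytosolic aminoacyl-tRNA synthetases, which load tRNAs with their amino acid, 7 rose and 13 did not pass (median 0.47). CARS, for cysteine, had 3969, 3604 and 3627 in FK and 8514, 8202 and 8751 in Met+FK (log2 fold change 1.19, standard error 0.07, adjusted p = 1.39e-08). GARS, for glycine, had 24872, 24318 and 22441 in FK and 49068, 47243 and 45634 in Met+FK (log2 fold change 0.99, standard error 0.06, adjusted p = 2.56e-08). MARS, for methionine, rose by 0.91, AARS, for alanine, by 0.85 and SARS, for serine, by 0.84. These 5 genes were called with any of the 6 libraries left out. EPRS, for glutamate and proline (0.61), was not called without some libraries (0.53 without FK replicate 1, 0.52 without FK replicate 3, 0.57 without Met+FK replicate 2), nor was YARS, for tyrosine (0.59, with 0.54 without FK replicate 2, 0.58 without FK replicate 3, 0.56 without Met+FK replicate 3). The lowest values in the list were −0.45 for RARS, for arginine, and −0.40 for FARSB, a phenylalanine synthetase chain. For metformin without FK866, the medians of the 3 lists were 0.73, 0.64 and 0.49.

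The C/EBP-ATF response element, through which ATF4 and its partners act on such genes, has the core TGATGNAA (N is any base). It was searched on both strands of RefSeq promoter windows of 300 bases (250 before the start of the gene and 50 after it, build GRCh38.p14), which were at hand for 10831 of the genes tested. It occurred in 3.67% of the 27305 windows of all genes and in 1.76% of the windows of genes tested, in 3.65% of the 931 windows of genes that rose and in 1.99% of the 953 of genes that fell. In the lists it was found in 2 of 16 windows of the stress response regulators (ATF3 and CHAC1), in 3 of 14 of the synthesis enzymes (ASNS, MTHFD1L and GOT1) and in 4 of 12 of the transporters (SLC3A2 and SLC7A1, which rose, and SLC38A1 and SLC1A3, which did not pass). In 5 windows of genes tested it overlapped an E-box (CACGTG). The 250 bases before the start of ASNS and of CHAC1 show how it sits in promoters of genes that rose, with the core in capitals, beginning 68 bases before the start of ASNS and, on the opposite strand, 209 bases before that of CHAC1.
ASNS (chr7:97872409-97872658, minus strand): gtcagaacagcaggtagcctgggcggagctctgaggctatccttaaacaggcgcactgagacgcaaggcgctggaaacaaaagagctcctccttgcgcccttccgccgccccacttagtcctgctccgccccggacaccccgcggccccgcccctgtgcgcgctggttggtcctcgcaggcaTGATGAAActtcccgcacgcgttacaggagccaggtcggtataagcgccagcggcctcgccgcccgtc
CHAC1 (chr15:40953221-40953470, plus strand): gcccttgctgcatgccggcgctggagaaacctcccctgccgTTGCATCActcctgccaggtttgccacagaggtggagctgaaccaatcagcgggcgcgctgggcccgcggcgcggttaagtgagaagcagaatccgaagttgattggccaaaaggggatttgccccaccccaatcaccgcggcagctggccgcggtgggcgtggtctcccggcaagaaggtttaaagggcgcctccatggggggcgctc

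Genes of the endoplasmic reticulum moved in both directions. This list holds the sensors of the unfolded protein response, its transcription factors and the chaperones they control. Of 23 genes, 5 rose, 6 fell and 12 did not pass (median −0.15, and 0.01 for metformin alone). ERN1, the sensor kinase and nuclease IRE1α, had 892, 1027 and 924 normalized counts in FK and 2814, 3078 and 2669 in Met+FK (log2 fold change 1.59, standard error 0.09, adjusted p = 1.24e-08). HSPA5, the chaperone BiP, had 29702, 29868 and 26487 in FK and 69728, 64262 and 57579 in Met+FK (log2 fold change 1.15, standard error 0.09, adjusted p = 1.64e-07). XBP1, the transcription factor whose mRNA IRE1α splices, rose by 0.75, the sensor ATF6 by 0.68, and HYOU1, a partner of BiP, by 0.84 on the log2 scale. In each of these 5 genes every Met+FK library was above every FK library, while 50.9% of all genes tested had no overlap in either direction. The chaperone HSP90B1 (GRP94) fell, with 13724, 20879.5 and 14464 in FK and 9284, 10156 and 9175 in Met+FK (log2 fold change −0.75, standard error 0.13, adjusted p = 0.00039). Its FK replicate 2 was high, and without it the log2 fold change was −0.56 and the gene was not called. CALR, the calcium-binding chaperone calreticulin, had 36148, 30955 and 33894 in FK and 21002, 20426 and 21596 in Met+FK (log2 fold change −0.68, standard error 0.08, adjusted p = 6.23e-06). SDF2L1, which helps BiP, had 497, 464 and 397 in FK and 222, 229 and 247 in Met+FK (log2 fold change −0.95, standard error 0.13, adjusted p = 3.08e-05). CALR and SDF2L1 were called lower with any library left out, as were the secreted stress proteins CRELD2 (−0.73) and MANF (−0.69). DNAJC3, a co-chaperone of BiP, fell by 0.60 on the log2 scale, but less without some libraries (−0.47 without FK replicate 2, −0.54 without Met+FK replicate 3). Of the 12 that did not pass, the protein disulfide isomerases PDIA3, PDIA4 and PDIA6 lay at −0.43, −0.44 and −0.46, and HERPUD1, of the degradation machinery, at 0.52.

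**Figure D2:**
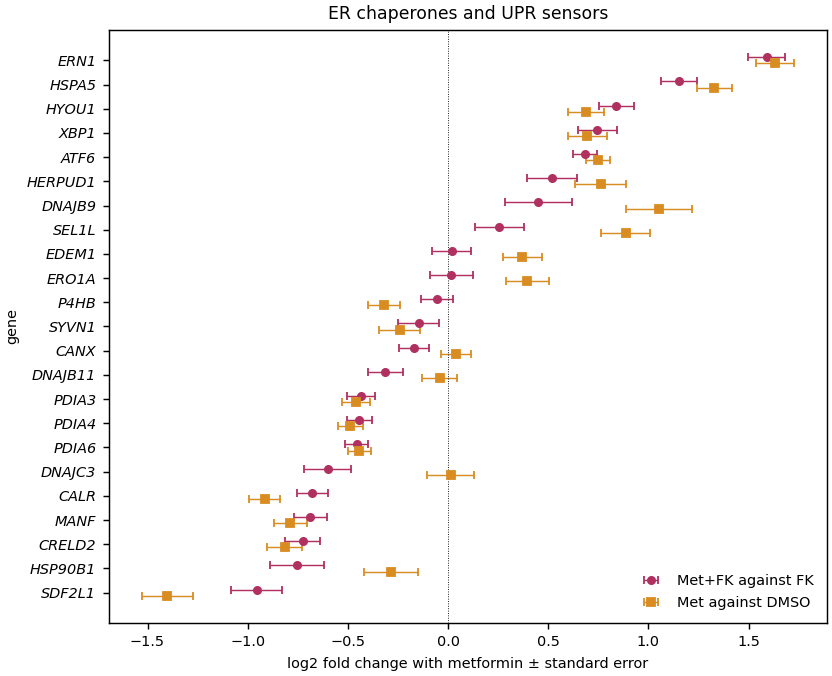
Log2 fold change (horizontal axis) with its standard error for the 23 genes of the endoplasmic reticulum (vertical axis), with metformin in FK866-treated cells (Met+FK against FK, circles) and without FK866 (Met against DMSO, squares). ERN1 and HSPA5 lie to the right at 1.59 and 1.15, SDF2L1 and HSP90B1 to the left at −0.95 and −0.75.

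The ER stress element, CCAAT and CCACG separated by 9 bases, was found in 6 of 22 windows of these genes, against 0.129% of the windows of all genes tested, 0.215% of those that rose and 0.42% of those that fell. The genes with a match had moved both ways: HSPA5 and XBP1 rose, HSP90B1, CALR and CRELD2 fell, and CANX, the chaperone calnexin, did not pass (−0.17). The element overlapped no other motif searched. It is in capitals in the 250 bases before the start of HSPA5, a gene that rose, and of HSP90B1, a gene that fell, which has 2 matches, the second on the opposite strand.
HSPA5 (chr9:125241344-125241593, minus strand): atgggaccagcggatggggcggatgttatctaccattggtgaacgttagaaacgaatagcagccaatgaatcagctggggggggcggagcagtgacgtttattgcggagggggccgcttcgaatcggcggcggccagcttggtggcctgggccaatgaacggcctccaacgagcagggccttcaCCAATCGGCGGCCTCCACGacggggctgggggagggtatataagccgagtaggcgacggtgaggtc
HSP90B1 (chr12:103930160-103930409, plus strand): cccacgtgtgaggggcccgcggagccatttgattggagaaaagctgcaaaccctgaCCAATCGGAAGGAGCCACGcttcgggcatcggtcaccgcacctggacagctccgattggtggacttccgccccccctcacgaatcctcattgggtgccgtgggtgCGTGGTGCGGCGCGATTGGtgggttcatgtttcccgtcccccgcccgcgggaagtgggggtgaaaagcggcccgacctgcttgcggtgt

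Cell cycle genes fell together. Of 36 genes of DNA replication, all tested, 32 fell and 4 did not pass. The median was −1.11, and in all 36 the groups did not overlap, against 50.9% of all genes tested. RRM2, the regulatory subunit of the enzyme that makes deoxyribonucleotides, on chromosome 2 from 10120698 to 10211725 on the plus strand, had 30752, 28664 and 29832 normalized counts in FK and 7679, 7462 and 7722 in Met+FK (log2 fold change −1.96, standard error 0.06, adjusted p = 1.71e-11). PCNA, the sliding clamp of DNA polymerases, had 5572, 5298 and 5256 in FK and 1712, 1641 and 1904 in Met+FK (log2 fold change −1.62, standard error 0.08, adjusted p = 1.57e-09). TYMS, which makes thymidylate, had 8812, 7398 and 7862 in FK and 2802, 2632 and 2701 in Met+FK (log2 fold change −1.56, standard error 0.07, adjusted p = 1.57e-09). The Met+FK libraries of these 3 genes were within a narrow range and far under the FK libraries. All subunits of the MCM helicase fell, from −1.04 (MCM6) to −1.39 (MCM4), with MCM2 at −1.09, MCM3 at −1.11, MCM5 at −1.06 and MCM7 at −1.04. So did its loader and activator proteins CDC6 (−1.16), CDT1 (−0.74), MCM10 (−1.65) and CDC45 (−1.14), and the primase-polymerase subunits POLA1 (−1.04), POLA2 (−1.20), PRIM1 (−0.76) and PRIM2 (−0.68). The 4 that did not pass had log2 fold changes of −0.57 (GINS3), −0.56 (RFC4), −0.50 (POLE) and −0.47 (POLD1). Each of the 32 calls held with any of the 6 libraries left out.

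Of 32 genes of mitosis and the kinetochore, 27 fell and 5 did not pass (median −0.90). SPC25, of the NDC80 complex that ties microtubules to kinetochores, had 959, 969 and 929.8 in FK and 314, 347 and 306 in Met+FK (log2 fold change −1.56, standard error 0.11, adjusted p = 4.12e-08). MKI67, the antigen Ki-67 of cycling cells, had 23457, 32879 and 24861 in FK and 10676, 10382 and 9681 in Met+FK (log2 fold change −1.39, standard error 0.10, adjusted p = 1.06e-07). CCNA2 (cyclin A) fell by 1.25, CDK1, its kinase, by 1.17, AURKB, a kinase of the chromosomal passenger complex, by 1.11 and PLK1, another mitotic kinase, by 0.78 on the log2 scale. Among the FK libraries, replicate 2 held the highest values of MKI67 and CDK1 and the lowest of AURKB and PLK1, and these calls held without it. In contrast, CENPF (−0.73) and NUF2 (−0.85) were not called without that library (−0.47 and −0.56). TTK (−0.95) was not called without Met+FK replicate 1 (−0.83), TPX2 (−0.62) not without FK replicate 1 (−0.58), and BUB3 (−0.60) not when FK replicate 2 or Met+FK replicate 3 was left out (−0.57 without FK replicate 2, −0.58 without Met+FK replicate 3). CDC20 (−0.59) held the call in 2 of the 6 fits without 1 library and was otherwise under the fold threshold (−0.51 without FK replicate 1, −0.58 without FK replicate 3, −0.56 without Met+FK replicate 1, −0.53 without Met+FK replicate 2). The 5 that did not pass were CENPE (−0.57), CCNB2 (−0.52), CDC25C (−0.37), KIF2C (−0.28) and CDC25B (−0.12).

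Of 22 cyclins, CDK inhibitors and E2F factors of the G1 phase, 20 were tested, 10 fell, 1 rose and 9 did not pass (median −0.54). CDKN2C, the CDK4 and CDK6 inhibitor p18, had 1536, 1242 and 1479.6 in FK and 471, 441 and 550.2 in Met+FK (log2 fold change −1.54, standard error 0.12, adjusted p = 2.14e-07). CCND2 was the gene that rose, with 2713, 3560.0 and 3222 in FK and 7059.9, 7285 and 6504 in Met+FK (log2 fold change 1.14, standard error 0.10, adjusted p = 3.81e-07), whereas the other D-type cyclins fell, CCND1 by 0.90 and CCND3 by 1.03. The lowest CCND2 library of Met+FK was far above the highest of FK. E2F1 had a log2 fold change of −1.15, E2F2 of −1.34, E2F8 of −1.45, CDK2 of −1.05, CCNE2 of −1.49 and CCNE1 of −0.62. CCNE1 lost the call without FK replicate 1 (−0.53). CDKN1A, the inhibitor p21, did not pass (−0.03), nor did CDKN1B, p27 (−0.14). For metformin alone the medians of the 3 cell cycle lists were −1.12, −0.75 and −0.53. In bulk libraries, fewer cells in a phase of the cycle and less RNA of these genes per cell cannot be told apart.

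The E2F site TTTCGCGC was found in 5 of 32 promoter windows of the replication genes (MCM2, MCM3, MCM6, MCM7 and POLA2), in 0.96% of the windows of all genes tested, in 0.322% of those that rose and in 1.89% of those that fell. It overlapped no other motif searched. The stretches before the start of MCM6, with 2 sites on the opposite strand, and of POLA2, with 1, are shown with the sites in capitals. MCM6 had 7492, 7231 and 7196 in FK and 3619, 3639.8 and 3419.5 in Met+FK, and POLA2 had 4215, 3387 and 4018 in FK and 1675, 1518 and 1845 in Met+FK. Both genes fell by more than 1 on the log2 scale.
MCM6 (chr2:135876444-135876693, minus strand): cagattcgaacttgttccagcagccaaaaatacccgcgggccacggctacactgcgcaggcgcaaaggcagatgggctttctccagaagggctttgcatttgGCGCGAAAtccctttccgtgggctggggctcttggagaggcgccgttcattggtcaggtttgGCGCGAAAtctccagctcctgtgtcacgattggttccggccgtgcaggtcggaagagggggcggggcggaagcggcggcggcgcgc
POLA2 (chr11:65261712-65261961, plus strand): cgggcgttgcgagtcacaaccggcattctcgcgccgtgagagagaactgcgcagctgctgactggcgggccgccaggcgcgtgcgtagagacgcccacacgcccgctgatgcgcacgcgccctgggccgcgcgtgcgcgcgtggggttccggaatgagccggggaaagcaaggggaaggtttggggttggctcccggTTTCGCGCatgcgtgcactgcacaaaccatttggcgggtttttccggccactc

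**Figure D3:**
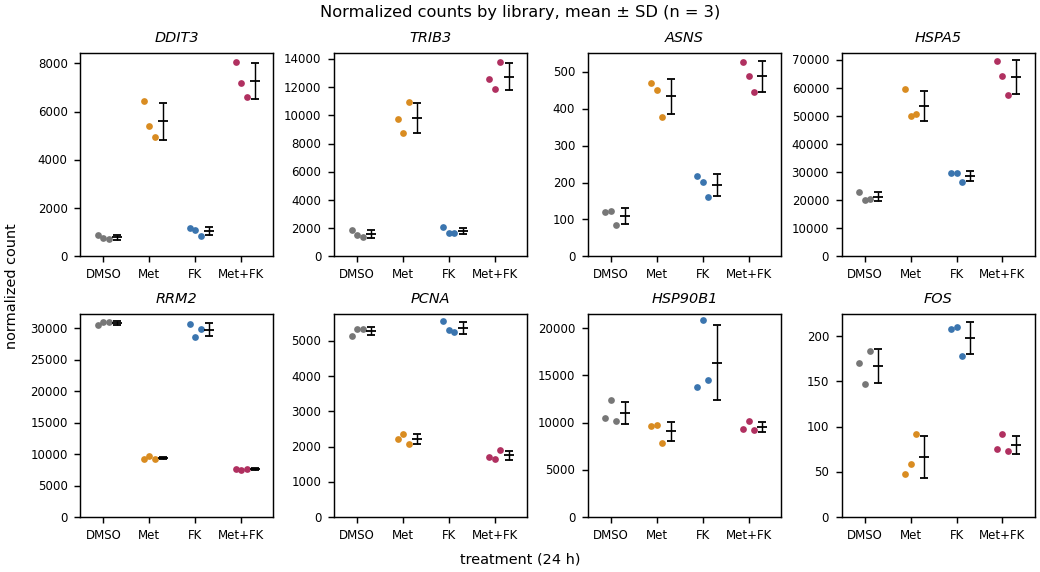
Normalized counts (vertical axes) of 8 genes in the 12 libraries, by treatment (horizontal axes), with each library as a point and the mean ± SD of the 3 libraries. DDIT3, TRIB3, ASNS and HSPA5 are higher in Met+FK than in FK, and RRM2, PCNA, HSP90B1 and FOS are lower, without overlap, as for 50.9% of all genes tested.

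The other 4 motifs were searched in the same windows. The cyclic AMP response element TGACGTCA was in 3.25% of the windows of all genes tested, 2.58% of those that rose and 3.04% of those that fell. The sterol regulatory element TCACNCCAC was in 1.03%, 1.4% and 0.944%, the E-box CACGTG in 10%, 12.7% and 7.45%, and the core of the antioxidant response element, TGACNNNGC, in 15.1%, 16% and 16.2%. These shares describe the windows and name no bound site.

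Of the 13 protein-coding genes of the mitochondrial genome, 4 fell and 9 did not pass (median −0.16). MT-ND6, a complex I subunit, had 5713, 5149.8 and 8080.1 normalized counts in FK and 2715, 2608 and 2495 in Met+FK (log2 fold change −1.25, standard error 0.19, adjusted p = 9.92e-05). MT-ND3, another, had 18491, 15816 and 18746 in FK and 8063, 8992 and 10064 in Met+FK (log2 fold change −0.97, standard error 0.10, adjusted p = 2e-06). MT-ATP8 and MT-ATP6, of ATP synthase, fell by 0.74 and 0.70, but their reading frames overlap and MT-ND6 lies on the other strand, so that counts without a known strand setting may be shared with neighbours. MT-ATP6 was not called without FK replicate 3 (−0.57), the library with the highest mitochondrial share. These genes took 3.66%, 3.59% and 4.51% of the counted read pairs in FK and 3.57%, 3.76% and 3.73% in Met+FK, with overlap. The other complex I genes lay between −0.54 (MT-ND1) and 0.15 (MT-ND4).

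Of the 37 nuclear genes of complex I, 2 fell and 35 did not pass (median −0.13), with a range from −0.70 (NDUFB3) to 0.32 (NDUFS4). NDUFB3 had 1111, 1425 and 1094 in FK and 705, 764 and 749 in Met+FK (log2 fold change −0.70, standard error 0.12, adjusted p = 0.00025), and NDUFV2 had a log2 fold change of −0.59. Neither was called without FK replicate 2 (−0.58 for both) or once the GC trend was removed, and NDUFV2 also lost the call without FK replicate 1 (−0.57) and without Met+FK replicate 3 (−0.57). Among 22 genes of the TCA cycle, IDH3A, a subunit of the NAD-dependent isocitrate dehydrogenase, fell, with 2928, 3127 and 2714 in FK and 1723, 1964 and 1784 in Met+FK (log2 fold change −0.68, standard error 0.09, adjusted p = 2.05e-05), and the other 21 did not pass (median −0.23). Among 14 mitochondrial chaperones and proteases 2 rose and 1 fell (median 0.07), beside 18.6% of all genes tested called in either direction. LONP1, the matrix protease, had 4497, 3726 and 4049 in FK and 7272, 6863 and 7631 in Met+FK (log2 fold change 0.83, standard error 0.08, adjusted p = 2.06e-06). HSPA9, the matrix HSP70, rose by 0.61 (0.58 without FK replicate 3, where it was not called). HSPE1, the co-chaperonin HSP10, fell, with 4748, 5411 and 4559 in FK and 2439.7, 2741 and 2504 in Met+FK (log2 fold change −0.94, standard error 0.11, adjusted p = 7.73e-06), while its partner HSPD1 did not pass (−0.45). For metformin alone the medians of these 4 lists were −0.31, −0.33, −0.31 and −0.10.

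NAMPT, the target of FK866, did not pass, with 2307, 3662 and 2351 normalized counts in FK and 3198, 3382 and 2864 in Met+FK (log2 fold change 0.21, standard error 0.16, adjusted p = 0.315), and FK replicate 2 was above all Met+FK libraries. Its log2 fold change was 0.43 without FK replicate 2 (adjusted p = 0.012) and 0.39 with the GC and length trend removed (adjusted p = 4.05e-05), both under the 1.5-fold limit, and 0.10 without FK replicate 1 and 0.11 without FK replicate 3. Of 24 genes that make or consume NAD, 22 were tested, 4 rose, 1 fell and 17 did not pass (median 0.23 with and without FK866). Among all genes tested, 18.6% were called in either direction. NNMT, which methylates nicotinamide, had 316, 276 and 266 in FK and 629, 585 and 635 in Met+FK (log2 fold change 1.11, standard error 0.10, adjusted p = 4.86e-07). NMNAT2, an NMN adenylyltransferase, had 67, 93.8 and 84.9 in FK and 162, 185 and 175 in Met+FK (log2 fold change 1.09, standard error 0.15, adjusted p = 5.29e-05). CD38, an NAD hydrolase of the cell surface, fell, with 56.6, 77.9 and 56.2 in FK and 24, 31.3 and 26.3 in Met+FK (log2 fold change −1.19, standard error 0.21, adjusted p = 0.000332). In all 3 the groups did not overlap, which also held for 50.9% of all genes tested. The sirtuins SIRT5, of the mitochondria, and SIRT2, of the cytosol, rose by 0.69 and 0.59, and SIRT2 was not called without 2 of the libraries (0.50 without FK replicate 2, 0.54 without Met+FK replicate 3). NAPRT, which makes NAD from nicotinic acid, did not pass (−0.49), nor did NMRK1, which starts from nicotinamide riboside (0.31), or PARP1, a consumer of NAD (−0.48).

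Glycolytic genes were split. Of 24, 3 rose, 4 fell and 17 did not pass (median −0.11, and −0.36 for metformin alone). HK2, a hexokinase, had 2751, 2996 and 2808 normalized counts in FK and 5559, 5005 and 4682 in Met+FK (log2 fold change 0.83, standard error 0.09, adjusted p = 3.49e-06), PFKFB2, which makes an activator of phosphofructokinase, rose by 0.83, and SLC2A1, the glucose carrier GLUT1, rose by 0.74. HK2 and SLC2A1 act at the entry of the pathway, and LDHA and SLC16A3, which fell, act at its end. Other members near these steps, the hexokinase HK1 (0.007) and the pyruvate kinase PKM (−0.20), did not pass. LDHA, lactate dehydrogenase, had 50490.2, 46214 and 46243 in FK and 27322, 26978 and 28165 in Met+FK (log2 fold change −0.79, standard error 0.06, adjusted p = 8.18e-08). SLC16A3, the lactate exporter MCT4, had 1259, 1201 and 1367 in FK and 521, 675 and 722 in Met+FK (log2 fold change −1.01, standard error 0.12, adjusted p = 1.24e-05). PGAM1 had a log2 fold change of −0.64 and ALDOC of −0.83, and both were called in only some of the fits without 1 library (−0.55 without FK replicate 1, −0.58 without Met+FK replicate 2 for PGAM1, −0.80 without FK replicate 1, −0.64 without FK replicate 3, −0.64 without Met+FK replicate 2 for ALDOC, where they were not). GAPDH did not pass (−0.09).

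Of 19 genes of energy stress and of the arrestin-domain family, 18 were tested, 3 rose, 1 fell and 14 did not pass (median 0.19). The share called over all genes tested was 18.6%. PRKAB2, a regulatory subunit of the kinase AMPK, had 899, 982 and 839 in FK and 2453, 2391 and 2128 in Met+FK (log2 fold change 1.36, standard error 0.09, adjusted p = 3.25e-08). IRS2, an adaptor of the insulin receptor, rose by 0.72 and ARRDC2, an arrestin-domain protein, by 0.66 (0.56 without FK replicate 2, where it was not called). SESN3, a sestrin, fell, with 252, 332 and 235 in FK and 139, 168 and 144 in Met+FK (log2 fold change −0.84, standard error 0.19, adjusted p = 0.00211). TXNIP, an arrestin-domain protein that restrains glucose uptake, had 1541, 1496 and 1452 in FK and 1262, 1339 and 1197 in Met+FK (log2 fold change −0.24, standard error 0.09, adjusted p = 0.0503), under the fold threshold although the groups did not overlap. Of 19 genes induced by hypoxia, 18 were tested, 4 rose, 1 fell and 13 did not pass (median 0.13). MXI1, a MYC antagonist, had 539, 613 and 509.7 in FK and 1087, 1149.8 and 1008 in Met+FK (log2 fold change 0.97, standard error 0.11, adjusted p = 8.57e-06), and NDRG1 had 2537, 2746 and 2478 in FK and 4844, 4937 and 4916 in Met+FK (log2 fold change 0.92, standard error 0.07, adjusted p = 1.43e-07). EGLN3, a prolyl hydroxylase of the hypoxia-inducible factors, fell, with 37.8, 38.9 and 32.1 in FK and 14.6, 7.41 and 12.7 in Met+FK (log2 fold change −1.61, standard error 0.30, adjusted p = 0.000615). ANKRD37 rose by 0.74 and LOX by 0.62, and LOX was not called without 4 of the 6 libraries (0.66 without FK replicate 1, 0.53 without FK replicate 3, 0.44 without Met+FK replicate 1, 0.59 without Met+FK replicate 2). VEGFA (−0.03) did not pass, and CA9 had at most 1 normalized count. For metformin alone the medians of these lists were 0.37 and 0.36.

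Of 24 genes of cholesterol synthesis and uptake, 7 fell and 17 did not pass (median −0.23, and −0.34 for metformin alone). STARD4, a cholesterol carrier, had 147, 189 and 142 normalized counts in FK and 55.4, 47.8 and 44.9 in Met+FK (log2 fold change −1.67, standard error 0.19, adjusted p = 5.04e-06), and each Met+FK library was below each FK library. EBP, ACAT2 and IDI1 fell by 1.03, 0.92 and 0.78 on the log2 scale. The master regulator SREBF2 (0.01) and the synthase HMGCS1 (−0.34) did not pass. Among 16 genes of fatty acid synthesis, SCD5, a desaturase, fell, with 2877, 2717 and 2878 in FK and 1425, 1615 and 1525 in Met+FK (log2 fold change −0.89, standard error 0.08, adjusted p = 4.21e-07), as did ELOVL6, an elongase (−0.68), which lost the call without FK replicate 2 (−0.54). The other 14 did not pass, among them FASN (−0.41), and the median was −0.25 (−0.27 for metformin alone).

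Of 22 targets of NRF2, the transcription factor of the oxidative stress response, 21 were tested, 6 rose, 1 fell and 14 did not pass (median 0.15, and 0.43 for metformin alone). HMOX1, heme oxygenase, on chromosome 22 from 35380361 to 35394207 on the plus strand, had 4732, 3601 and 2748 normalized counts in FK and 22599, 14671 and 15299.6 in Met+FK (log2 fold change 2.25, standard error 0.25, adjusted p = 5.84e-06). Replicate 1 was highest in both groups, and the groups stayed far apart. The ferritin chains FTH1 and FTL rose by 0.92 and 0.75, SRXN1, which repairs peroxiredoxins, by 0.84, and OSGIN1, an oxidative stress-induced growth inhibitor, had 1941, 1837 and 1674 in FK and 3697, 2971 and 3240.0 in Met+FK (log2 fold change 0.86, standard error 0.11, adjusted p = 2.7e-05). The cystine importer SLC7A11 is a member of this list too. ABCC2, an export pump, had 129, 134 and 186 in FK and 129.6, 79.9 and 80 in Met+FK (log2 fold change −0.65, standard error 0.19, adjusted p = 0.0117), with overlap between the groups, and was not called without FK replicate 3 or without Met+FK replicate 2 or 3 (−0.48, −0.53 and −0.53). Classical targets such as NQO1 (0.13), GCLM (−0.08) and TXNRD1 (0.14) did not pass.

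Of 25 genes of autophagy and the lysosome, 4 rose and 21 did not pass (median 0.14, and 0.15 for metformin alone). The share called over all genes tested was 18.6%. SQSTM1, the cargo receptor p62, had 58969, 45019 and 49453 in FK and 116850.0, 104849 and 115357 in Met+FK (log2 fold change 1.14, standard error 0.10, adjusted p = 8.56e-07). MAP1LC3B, which coats autophagosomes, had 6082, 5790.3 and 5731 in FK and 13185, 11261 and 10944 in Met+FK (log2 fold change 1.0, standard error 0.09, adjusted p = 6.04e-07). WIPI1, of early autophagosomes, rose by 0.93, and GABARAPL1 by 0.60, which was not called without Met+FK replicate 1 (0.53). The kinase ULK1 (0.45) and the regulator TFEB (−0.01) did not pass.

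Cell death genes showed a few large changes among many that did not pass. Of 20 genes of the BCL2 family and the death receptors, 5 rose and 15 did not pass (median 0.05, and 0.01 for metformin alone). Beside HRK, the BH3-only gene BBC3 (PUMA) had 75.5, 70.8 and 72.3 normalized counts in FK and 278, 241 and 198 in Met+FK (log2 fold change 1.69, standard error 0.15, adjusted p = 5.64e-07). TNFRSF10B, the TRAIL receptor DR5, had 3683, 3456 and 3817 in FK and 8821, 8359 and 8288 in Met+FK (log2 fold change 1.22, standard error 0.07, adjusted p = 5.5e-09). BCL2L1, which encodes the survival protein BCL-XL, rose as well, from 4245, 3352 and 3823 in FK to 6004, 5706 and 6459 in Met+FK (log2 fold change 0.67, standard error 0.09, adjusted p = 2.18e-05). In these 3 genes the groups did not overlap, as in 50.9% of all genes tested. BIK rose by 0.91, from 37.8, 31 and 18.4 in FK to 40.8, 55.2 and 66.3 in Met+FK, and was not called without some libraries (0.62 without FK replicate 3, 0.75 without Met+FK replicate 3). MCL1 (0.11), BAX (−0.09) and PMAIP1 (0.46) did not pass.

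Immediate early genes, which respond within minutes to growth factor signals, and the feedback genes of the MAPK pathway were split. Of 29, 3 rose, 8 fell and 18 did not pass (median −0.03, and −0.08 for metformin alone). FOSB had 328, 339 and 334 normalized counts in FK and 117, 110.4 and 141 in Met+FK (log2 fold change −1.44, standard error 0.15, adjusted p = 2.13e-06), and FOS had 208, 209.7 and 178 in FK and 75.3, 91.4 and 73.2 in Met+FK (log2 fold change −1.30, standard error 0.20, adjusted p = 9.61e-05). EGR3 and EGR2, zinc finger factors, had log2 fold changes of −1.40 and −1.30, and NR4A2, an orphan nuclear receptor, of −1.20. All 5 transcription factors were lower in each Met+FK library, while 50.9% of all genes tested had no overlap in either direction. IER5 fell by 0.76, and among the feedback genes DUSP4 fell by 0.65 and SPRY1 by 0.62, while DUSP5, a phosphatase of ERK, rose, with 1989.6, 1724 and 1914 in FK and 5298, 5001 and 4992 in Met+FK (log2 fold change 1.44, standard error 0.07, adjusted p = 3.71e-09). SPRY1 was not called without FK replicate 3 (−0.55). KLF4 and KLF6, zinc finger factors of differentiation, rose by 0.84 and 0.71. IER3 had 762, 609 and 705 in FK and 666, 680.4 and 747 in Met+FK (log2 fold change 0.02, standard error 0.11, adjusted p = 0.913) and overlapped between the groups.

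Of 21 genes of prostaglandin synthesis and of chemokines, interleukins and EGF receptor ligands, 18 were tested, 4 rose, 4 fell and 10 did not pass (median −0.13, and 0.29 for metformin alone). CCL2, a monocyte chemokine, had 5464, 4518 and 4469.9 normalized counts in FK and 1549, 1797 and 2021 in Met+FK (log2 fold change −1.43, standard error 0.11, adjusted p = 1.34e-07). IL11 had 227, 258 and 275 in FK and 103, 119 and 140.5 in Met+FK (log2 fold change −1.07, standard error 0.14, adjusted p = 2.11e-05). The EGF receptor ligands moved apart: EREG fell, as described below, and AREG rose, with 879.7, 1113 and 847 in FK and 2014, 1838 and 1579.5 in Met+FK (log2 fold change 0.94, standard error 0.11, adjusted p = 1.3e-05). GDF15, a stress-induced cytokine, rose from 1403, 1443 and 1433 in FK to 2999, 3447 and 3433 in Met+FK (log2 fold change 1.20, standard error 0.09, adjusted p = 1.27e-07). CXCL2 and CXCL3, neutrophil chemokines, rose by 0.98 and 0.87, and CXCL8 did not pass (−0.24). IL1B fell by 0.61 but was not called without some libraries (−0.55 without FK replicate 2, −0.50 without Met+FK replicate 1, −0.56 without Met+FK replicate 3). Of 24 interferon-stimulated and antigen presentation genes, 22 were tested, 6 fell and 16 did not pass (median −0.15, and −0.20 for metformin alone). IFIT1, which binds foreign RNA, had 276, 253 and 274 in FK and 114, 122 and 127 in Met+FK (log2 fold change −1.14, standard error 0.12, adjusted p = 3.08e-06). OAS3 fell by 0.93, IRF1, an interferon regulatory factor, by 0.84 and IFIT3 by 0.67, while IFI44 and OAS1 (−0.69 and −0.65) were not called without some libraries (−0.45 without FK replicate 2, −0.57 without Met+FK replicate 3 for IFI44, −0.58 without FK replicate 3, −0.48 without Met+FK replicate 1, −0.57 without Met+FK replicate 2 for OAS1). HLA-B (0.16), of antigen presentation, did not pass.

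Of 14 targets of YAP, a transcriptional co-activator of cell contact and stiffness, 13 were tested, 2 fell and 11 did not pass (median 0.20, and −0.08 for metformin alone). THBS1, thrombospondin, had 14111, 15072 and 14476 normalized counts in FK and 5776, 6034 and 5568 in Met+FK (log2 fold change −1.33, standard error 0.08, adjusted p = 2.24e-08), and F3, tissue factor, had a log2 fold change of −0.81. CCN2, a classical target, did not pass (0.16). Of 30 genes of the extracellular matrix, integrins and mesenchymal cells, 21 were tested, 1 rose, 2 fell and 18 did not pass (median 0.02, and 0.12 for metformin alone). Both this list and the YAP list stand beside 18.6% called over all genes tested. CDH1, the epithelial cadherin, was low and rose, with 24.5, 29.2 and 32.1 in FK and 65.9, 86.5 and 61.5 in Met+FK (log2 fold change 1.28, standard error 0.22, adjusted p = 0.000248). NES had 180.3, 180.5 and 225 in FK and 35.5, 33.8 and 39 in Met+FK (log2 fold change −2.40, standard error 0.17, adjusted p = 7.57e-08). COL1A1 had 228, 307 and 286 in FK and 57.5, 83.2 and 71.2 in Met+FK (log2 fold change −1.94, standard error 0.19, adjusted p = 1.61e-06). The groups did not overlap in these 3 genes, as in 50.9% of all genes tested, and for NES and COL1A1 this was a condition of their choice above. The 8 fibroblast markers, COL1A1 among them, summed to 304.86 to 398.11 in FK and 102.44 to 146.61 in Met+FK. Of the 4 that were tested COL1A1, COL3A1 and PDGFRA fell and PDGFRB rose, DCN was at 0 in all 6 libraries, and the part of other cells in these values was not tested. VIM, vimentin, did not pass (−0.03). Of 26 genes of ribosome biogenesis 2 fell, NCL, nucleolin, with 31862, 37168 and 30569 in FK and 20287, 19943 and 18494 in Met+FK (log2 fold change −0.76, standard error 0.09, adjusted p = 9.54e-06), and UTP20 (−0.67), which lost the call without FK replicate 2 (−0.57), and 24 did not pass (median −0.21, and −0.34 for metformin alone).

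**Figure D4:**
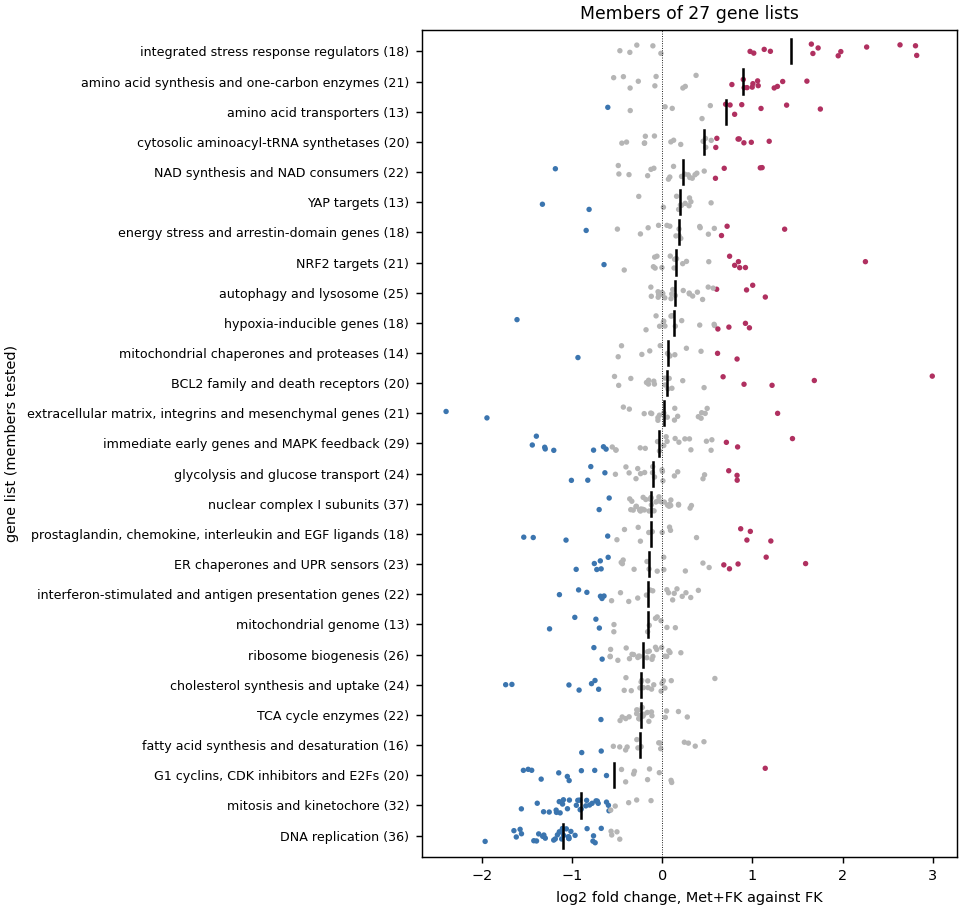
Log2 fold change of Met+FK against FK (horizontal axis) for the tested members of the 27 gene lists (vertical axis). Each point is a gene, crimson where it was called higher, blue where it was called lower and grey where it was not called, and the black bar is the list's median, from 1.43 for the integrated stress response to −1.11 for DNA replication.

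TBP, which is widely used as a reference gene, did not pass. It had 866, 848 and 808 normalized counts in FK and 816, 853 and 768 in Met+FK (log2 fold change −0.05, standard error 0.08, adjusted p = 0.634), and the groups overlapped.

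Whether metformin acted differently with and without FK866 was tested gene by gene as an interaction, the log2 fold change of Met+FK against FK minus that of Met against DMSO. Limma-trend gave an adjusted p-value under 0.05 for 9 genes (0.0585% of 15376), with a lower value under FK866 for 8 of them and a higher value for 1. Its unadjusted p-value was under 0.05 for 4695 of the 15376 genes, far more than this limit would give if no gene differed. The small number of adjusted calls therefore does not show that the other genes responded alike, and the cause of the many low p-values was not tested. Of the 9, 4 were DEGs of Met+FK against FK. EREG, which encodes the EGF receptor ligand epiregulin on chromosome 4 from 74365145 to 74388749 on the plus strand, had 9133, 13002 and 8508 in FK and 3766, 3489.9 and 3151 in Met+FK (log2 fold change −1.54, standard error 0.13, adjusted p = 3.34e-07). Without FK866 it had 3136, 3071 and 2991 in DMSO and 2914, 3045 and 2532 in Met (log2 fold change −0.12), and the interaction was −1.42 (standard error 0.18, adjusted p = 0.0174). The FK libraries were above all others, and the Met+FK libraries were close to those without FK866. SLC5A3, the inositol transporter, had 6788, 9755 and 7460.2 in FK and 5606, 5547 and 4941 in Met+FK, and 3453, 3627 and 3108 in DMSO and 4851, 5111 and 4497 in Met (interaction −1.07, standard error 0.16, adjusted p = 0.0407). CYP1B1, a cytochrome P450 enzyme, had 575, 889 and 681 in FK and 467, 537 and 437 in Met+FK, and 253, 319 and 283 in DMSO and 477, 476 and 445 in Met (interaction −1.27, standard error 0.20, adjusted p = 0.0407). In both genes Met was above DMSO and Met+FK under FK, and neither was a DEG of Met+FK against FK (−0.56 and −0.55).

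TRIB2, a pseudokinase related to TRIB3, had 789, 833 and 793 in FK and 457, 519 and 482 in Met+FK, and 604, 568 and 569.8 in DMSO and 563, 588 and 609.7 in Met (interaction −0.74, standard error 0.12, adjusted p = 0.0407), and was lower in Met+FK than in FK, while DMSO and Met overlapped. ATF3 rose in both settings, by 1.95 with FK866 and 2.62 without, and it had 625, 609.9 and 671 in DMSO and 4030.2, 3792 and 3939.5 in Met (interaction −0.67, standard error 0.11, adjusted p = 0.0407). PTCHD1, a membrane protein, had a log2 fold change of −1.06 with FK866 and −0.02 without, and its interaction was not called with the GC and length trend removed (−0.64, adjusted p = 0.0999). PTGS2, the prostaglandin synthase COX-2, had 1269, 1842 and 1199.5 in FK and 1569, 1683 and 1257 in Met+FK, and 344, 343 and 371 in DMSO and 945, 1019.5 and 794 in Met (interaction −1.29, standard error 0.21, adjusted p = 0.0407). It rose with metformin alone, a comparison in which 23% of the genes tested were called, and overlapped between FK and Met+FK. CCN1, a matrix protein and YAP target, had the higher response, 0.54 with FK866 and −0.27 without (interaction 0.81, standard error 0.13, adjusted p = 0.0407), and the long non-coding RNA AC116158.3 had −0.54 and 1.46. These calls depended on single libraries: with each of the 12 left out in turn, from 0 to 1845 genes were called, the latter without FK replicate 1, and 5 without FK replicate 2. EREG was called in 6 of the 12 fits, and the others in at most 3. DESeq2 gave 872 genes, the limma-trend fit with the GC and length trend removed 92, the fit with the replicate number as a block 4914, and the fit with both 1068. With the trend removed the interaction was −0.91 for EREG, −0.57 for SLC5A3 and −0.81 for PTGS2. It was −1.06 for CYP1B1, −0.80 for TRIB2, −0.77 for ATF3, −1.66 for AC116158.3 and 0.72 for CCN1. All of these were still called, and only PTCHD1 was not. The 92 genes of this limma-trend fit also included genes described above. They were GDF15 (−0.88, adjusted p = 0.00156), DDIT4 (−0.44, adjusted p = 0.00775), THBS1 (−0.44, adjusted p = 0.0471) and PRKAB2 (0.48, adjusted p = 0.0282). None of them was called with the trend left in.

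**Figure D5:**
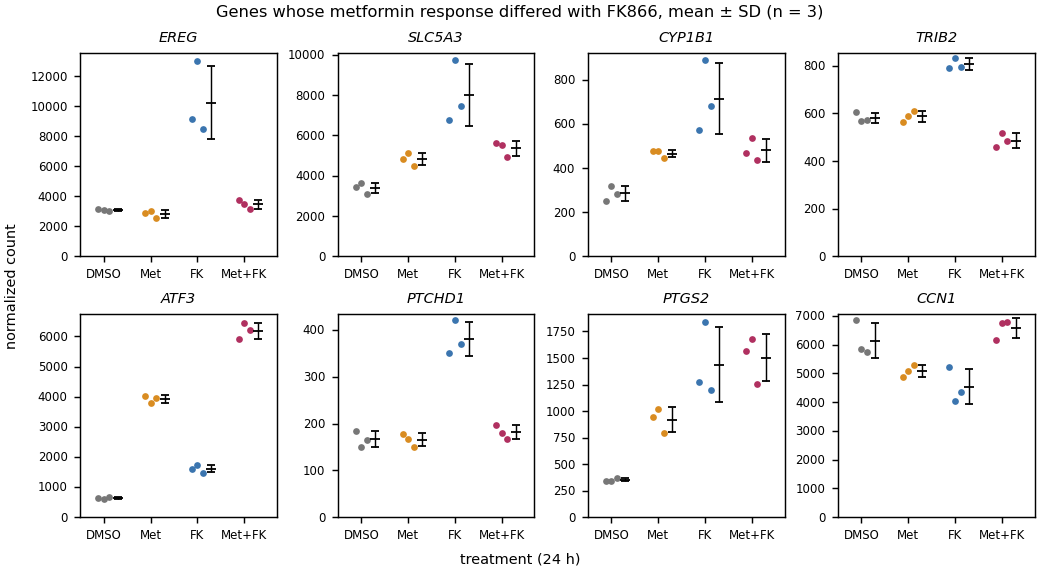
Normalized counts (vertical axes) of 8 of the 9 genes with an interaction in the 12 libraries, by treatment (horizontal axes), with each library as a point and the mean ± SD of the 3 libraries. EREG, SLC5A3 and CYP1B1 are highest in FK, ATF3 is highest in Met+FK, and AC116158.3 is not drawn.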

How the data were processed

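Total RNA of KP4 cells was depleted of ribosomal RNA and sequenced as read pairs in 12 libraries, 3 per treatment. Per the study's methods, the authors used cutadapt for trimming, STAR for alignment to hg38 and featureCounts for counting pairs, and deposited gene counts divided by DESeq2 size factors, a signal without negative values. The annotation and strand setting are not given in the sources used here, so overlapping and antisense genes and near-identical copies are uncertain. Dividing each library by its smallest step gave whole read pairs for 100% of the values within 0.01, from 30667735 to 41052203 per library. Errors are those between replicates, and no counting intervals are given. In the deposited table gene starts count from 0, and 1 was added. With that, 89.1% of the 36366 genes found in GENCODE 44 had the same start.

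Genes with a mean of at least 10 were tested with limma-trend (limma 3.58.1, R 4.3.3) on log2(normalized count + 1), all 12 libraries in 1 fit with 1 mean per treatment, and Benjamini-Hochberg adjustment over 15376 genes. Fold changes on this scale understate those of low genes. A DEG needed a fold change over 1.5 beside an adjusted p-value under 0.05, whereas the interaction needed the p-value only. In simulated counts for the comparison of Met+FK with FK, 169 of 200 genes changed 2-fold among 15376 were called, with 1 false call, and 0 when none changed. The interaction called 9 of the unchanged genes in the first simulation and 0 in the second. The changed genes of the first simulation differed in Met+FK alone and so held a true interaction. Calls among them are not in the 9, which is therefore no count for data without any interaction. The simulated libraries had no GC trend and fewer changed genes than the 18.6% called here. The simulations therefore do not give the error rate of the real comparison. Between replicates, the chi-square divided by its degrees of freedom lay from 5.69 to 51.4, so none was treated as a duplicate. As alternatives, the pseudocount was 0.1 or 10, the filter was any value above 0 or at least 10 in every library, the scaling was to equal totals or by TMM, only the 6 libraries were fitted, the replicate number entered as a block, the recovered read pairs were tested with edgeR (4.0.16, quasi-likelihood) and DESeq2 (1.42.0), the adjusted p-value was used alone, a loess trend on GC content and length was taken out (span 0.3), and each library was left out in turn. The members, the 27 lists, written from general knowledge, and the tests were chosen with earlier results of these data known. Genes are named as the 12 highest and 12 lowest changes of DEGs averaging 100 or more whose libraries did not overlap, the highest and lowest DEG of each list, genes the study names, and the 5 smallest interaction p-values, with further list members and the other interaction genes. Several genes that this rule or the lists would name are not reported here. Promoters come from RefSeq (GRCh38.p14).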

Additional observations from a re-analysis of the deposited data

Results flagged for a closer look

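The response to metformin differed between FK866-treated cells and cells without FK866 for 9 genes, by the interaction term of limma-trend with an adjusted p-value of 0.0174 for EREG and 0.0407 for the others. The count was 92 with the GC and length trend removed, 872 with DESeq2, 4914 with a replicate block and 1068 with the block and the trend removed. The values are differences of log2 fold changes, the response with FK866 minus the response without it. EREG had −1.42 (standard error 0.18), SLC5A3 −1.07, CYP1B1 −1.27, TRIB2 −0.74, ATF3 −0.67, PTCHD1 −1.05, PTGS2 −1.29 and the long non-coding RNA AC116158.3 −2.0, and CCN1 had 0.81. With the GC and length trend removed, EREG had −0.91, SLC5A3 −0.57, PTGS2 −0.81, CYP1B1 −1.06, TRIB2 −0.80, ATF3 −0.77, AC116158.3 −1.66 and CCN1 0.72. All of these were still called. PTCHD1 had −0.64 and was not called (adjusted p = 0.0999). The log2 fold change of EREG was −1.54 with FK866 and −0.12 without, that of TRIB2 −0.73 and 0.02, and that of PTCHD1 −1.06 and −0.02, while ATF3 rose in both settings, by 1.95 and 2.62. AC116158.3 had few counts, with 43.4, 36.3 and 31 in FK and 31.4, 19.8 and 24.4 in Met+FK. The number of the 12 fits without 1 library that kept the call was 6 for EREG, 3 for SLC5A3, 2 for CYP1B1, PTCHD1, PTGS2 and AC116158.3, and 1 for TRIB2, ATF3 and CCN1.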

How the results depend on the processing

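The counts of genes higher and lower in Met+FK than in FK stayed within 1.5 times of 1425 and 1429 under all alternatives except the adjusted p-value alone, without a fold threshold, which gave 3149 and 3329. Without 1 library they ranged from 1328 to 1515 and from 1332 to 1461. edgeR called 2890 genes, 2793 of them shared with the 2854 in the same direction, and DESeq2 2803 with 2744 shared. With equal library totals, 1707 genes were higher and 1175 lower. The 9 interaction genes became 872 with DESeq2, 92 with the GC and length trend removed, 1 with all genes with any value, and from 0 to 1845 without 1 library: 1845 without FK replicate 1, 5 without FK replicate 2, and 0 or 1 without DMSO replicate 1, 2 or 3, Met replicate 1, 2 or 3, FK replicate 3 or Met+FK replicate 2 or 3. The cause was not tested. The replicate block gave 4914 interaction genes, or 1068 with the GC trend removed, and 2949 genes for Met+FK against FK, of which 2850 were shared. The pairing check did not settle whether samples were paired. Deviations of same-numbered FK and Met+FK libraries correlated at 0.046, 0.235 and 0.142 across genes, and FK replicate 1 correlated best with Met+FK replicate 3 (0.123). Same-numbered DMSO and Met libraries, which also enter the interaction, correlated at 0.0129, 0.328 and 0.248, and DMSO replicate 1 correlated best with Met replicate 3 (0.162). With the GC trend removed, the correlations of same-numbered FK and Met+FK libraries were 0.0766, 0.0934 and 0.0533, none over 0.1. Every FK and Met+FK library then correlated best with its own number. That match by number is a hint from the data and not from the labels. Different numbers correlated negatively, but deviations are taken from the mean of each group, which in part forces negative values and adds no separate evidence.

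Of the named genes, IER3 (0.02) reversed to −0.06 with the GC trend removed, to −0.06 with the block as well, to −0.07 without FK replicate 2 and to −0.03 without Met+FK replicate 3. TBP (−0.05) reversed to 0.01 at the same total. Without 1 library IER3 ranged from −0.07 to 0.09. None of the reversed values was called. NDUFB3 lost its call with the GC trend removed (−0.57), and SLC7A6 at the same total (−0.54). Of 1026 recomputed counts of list members, 73 moved by over 1.5 times, 30 of them with the adjusted p-value alone, and the other 43 by at most 2 genes. Of these, 23 came from leaving out a library. In the direction already called these were, without FK replicate 1, complex I (1 lower), the TCA cycle (2 lower), glycolysis (2 lower), energy stress (2 lower), NAD (2 lower) and ribosome biogenesis (4 lower); without FK replicate 2, complex I (0 lower) and fatty acid synthesis (1 lower); without FK replicate 3, the transporters (0 lower), mitochondrial chaperones (1 higher) and NRF2 targets (0 lower); without Met+FK replicate 1, ribosome biogenesis (4 lower); without Met+FK replicate 2, glycolysis (2 lower) and NRF2 targets (0 lower); and without Met+FK replicate 3, complex I (1 lower) and NRF2 targets (0 lower). With 3 libraries per treatment, the interaction of EREG had a standard error of 0.18, and the median size of the interaction over all DEGs was 0.293 on the log2 scale.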
